A study of Mus musculus with 6 samples.

Results

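The cells described here are peptidergic sensory neurons of mouse dorsal root ganglia that carried transcripts of Fgg, the fibrinogen gamma chain, and of Tac1, the substance P precursor. They were chosen by their unique molecular identifier (UMI) counts, where each UMI stands for 1 captured transcript. A cell had to hold at least 3 UMIs of Calca, the precursor of calcitonin gene-related peptide (CGRP), at least 1 of Fgg and at least 1 of Tac1. It also had to hold no UMI of Chrna3 or Slc5a7, fewer than 3 of Mrgprd and Lpar3 together and fewer than 5 of Sst and Nppb together. This gate took 602 of 21685 cells, and 578 of 21024 remained after cell filters and removal of called doublets. Single-cell 3' RNA libraries came from 6 mice in 3 groups of 2. The vitamin E deficient group were Ttpa-/- mice on a vitamin E deficient diet (mouse 654, female, and mouse 657, male, both 6 months old). The supplemented group were Ttpa-/- mice given vitamin E (mouse 670, male, and mouse 671, female, both 6 months old). The wild-type group were Ttpa+/+ mice on a basal vitamin E diet (mouse 698, female, and mouse 699, male, both 5 months old). Ttpa encodes the alpha-tocopherol transfer protein, by which the liver keeps vitamin E in the circulation. Genotype, diet and age change together between the wild-type and the Ttpa-/- groups and cannot be told apart there, while the Ttpa-/- groups differ in diet alone among these 3. The labels name no strain, litter or dissociation day, so p-values measure the spread between these mice only.

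Peptidergic nociceptors are unmyelinated or thinly myelinated neurons that detect noxious heat, chemicals and pressure, depend on nerve growth factor during development, and release CGRP and substance P at both of their ends. In the skin these peptides dilate vessels and draw in plasma, and in the spinal cord they take part in pain signalling. Several kinds are known, among them cells with Sstr2 and Adcyap1, mechanically silent cells with Chrna3, and myelinated cells with Bmpr1b and Kit, and these served as the comparison populations. Fgg is best known as a liver gene whose product joins the fibrinogen alpha and beta chains (Fga, Fgb) in clotting.

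The sequence just before the start of the 3 genes that define the cells, and of F2rl2, a protease-activated receptor gene described below, is shown so that they can be read side by side. They are RefSeq promoter sequences on the GRCm38.p6 build, 5′ to 3′ on the strand of the gene, and those of Tac1 and F2rl2 stop where the annotated gene body begins. They lie at chr3:83007474-83007723 on the plus strand for Fgg, chr6:7554811-7554878 on the plus strand for Tac1, chr7:114636358-114636607 on the minus strand for Calca and chr13:95696670-95696852 on the plus strand for F2rl2. Capitals mark TGACGCAA (or its reverse TTGCGTCA), a cyclic AMP response element variant, and TTCAAAG (the reverse of CTTTGAA), the core bound by Lef1 and its relatives. Both motifs were picked with these sequences in view.
Fgg: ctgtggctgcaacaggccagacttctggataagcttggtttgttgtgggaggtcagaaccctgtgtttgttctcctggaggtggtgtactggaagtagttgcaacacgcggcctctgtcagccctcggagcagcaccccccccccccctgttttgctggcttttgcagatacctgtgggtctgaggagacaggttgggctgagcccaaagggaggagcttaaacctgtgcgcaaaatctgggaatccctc
Tac1: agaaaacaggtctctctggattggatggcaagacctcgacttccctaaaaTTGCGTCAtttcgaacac
Calca: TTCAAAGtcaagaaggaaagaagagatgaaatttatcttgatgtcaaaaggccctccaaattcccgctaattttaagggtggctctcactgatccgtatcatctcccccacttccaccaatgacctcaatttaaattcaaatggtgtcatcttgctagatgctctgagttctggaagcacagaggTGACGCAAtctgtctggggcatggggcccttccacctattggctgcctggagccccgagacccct
F2rl2: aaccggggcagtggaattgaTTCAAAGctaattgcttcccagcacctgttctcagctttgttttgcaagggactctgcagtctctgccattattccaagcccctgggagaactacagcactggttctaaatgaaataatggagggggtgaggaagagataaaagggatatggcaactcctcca
Both peptide genes held the 8-base motif, Calca on its own strand and Tac1 on the opposite strand, and 144 of 32536 mouse promoters (0.443%, both strands of a 250-base window) hold it. The 7-base motif stood in the windows of Calca and F2rl2, and 1454 promoters (4.47%) hold it. The Fgg window held neither string of letters. A match describes these letters and shows no binding.

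The table held 98219078 UMIs over 27998 genes, and the kept cells of a mouse held 12136490 to 18657649 UMIs with medians of 2500 to 4944 per cell. Mice 654 and 670 had the shallowest cells. Barcodes in more than 1 library numbered 261. No barcode was gated in 2 libraries, and 17 gated barcodes also occurred as another cell of a different library. Between 80 and 118 gated cells per mouse entered the sums. Ttpa gave 0 UMIs in the gated cells of every mouse, wild type included, so its transcript does not check the genotype labels.

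The gated cells were of ordinary depth, with a median of 3221 UMIs and 1650.5 genes, and their gate genes differed in abundance. The median cell held 14 Calca UMIs (range 3 to 195), 8 Tac1 UMIs (1 to 86) and 1 Fgg UMI (1 to 13). Exactly 1 Fgg UMI was found in 305 of the 578 cells (52.8%), so for most cells the gate rests on a single Fgg transcript. Fgg was uncommon elsewhere: 1190 of all kept cells (5.66%) had it, 578 of them inside the gate, and the gated cells held 1088 of its 1882 UMIs (57.8%). Cells with 3 or more Mrgprd and Lpar3 UMIs made up 265 of the cells with Fgg (22.3%), and cells with 5 or more Sst and Nppb UMIs made up 80 (6.72%). These values follow from the gate and carry no test.

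Tac1 split the gated cells into unequal parts. Most held much Tac1, with 112 cells at 50 or more Tac1 UMIs per 10000 UMIs, 159 at 30 to 50 and 136 at 20 to 30. A smaller number held little, with 23 cells under 2, 36 at 2 to 4 and 18 at 4 to 6. Only 8 cells lay at 6 to 8, 10 at 8 to 10 and 11 at 10 to 12. A boundary of 10 per 10000, set after these values were seen, gave 483 Tac1-rich and 95 Tac1-poor cells, with 21 cells within 2 of the boundary. It is a range and not a cell type, and since it was drawn on the data, values of the Tac1-rich cells are given as description only.

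**Figure D1:**
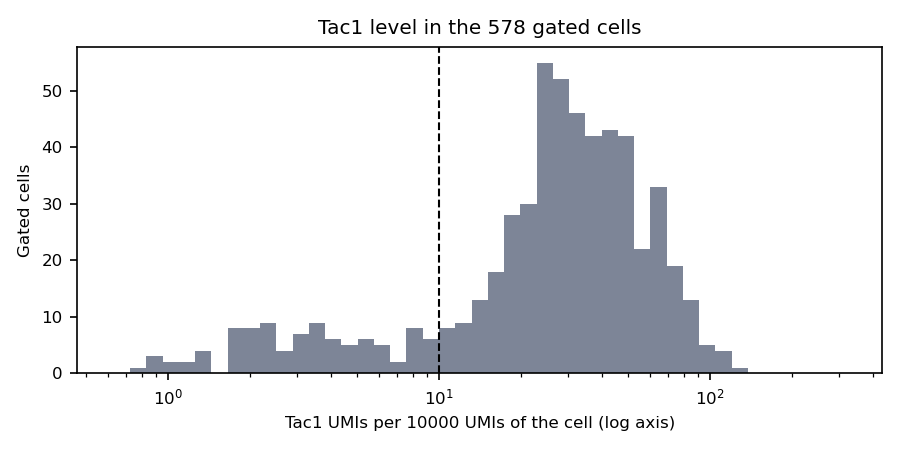
Histogram of Tac1 UMIs per 10000 UMIs (log axis) over the 578 gated cells of all 6 mice, with the boundary at 10 as a dashed line. Most cells lie above the line and 95 lie below it, with few near it.

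The Tac1-poor cells went against the label. They were larger libraries, with a median of 6362 UMIs against 3023 in Tac1-rich cells, and so made up 16.4% of the gated cells but 29.1% of their UMIs. By mouse their share of cells was 20%, 11.25%, 26.8%, 11.4%, 18.6% and 12.1% for mice 654, 657, 670, 671, 698 and 699. Mouse 670 had the largest share and mouse 657 the smallest. Of the Tac1-poor cells, 76 of 95 (80.0%) held a single Fgg UMI, against 229 of 483 (47.4%) of the Tac1-rich cells. They were richer than the Tac1-rich cells in genes of non-peptidergic and itch neurons. The summed level of 14 such genes lay at 375 to 585 CPM (UMIs scaled to a common library total) in Tac1-poor cells of the 6 mice. It lay at 115 to 204 CPM in Tac1-rich cells, without overlap. In Calca cells outside the gate it lay at 288 to 465 CPM, overlapping with the Tac1-poor cells, and in Sstr2 Adcyap1 cells at 260 to 342. The gate limits Mrgprd, Lpar3, Sst and Nppb, genes of these classes, so the sum in gated cells partly follows from the gate. Mrgpra3, an itch receptor, had a mean of 108 CPM in Tac1-poor cells and 2.18 in Tac1-rich cells. Gfra2, the neurturin receptor, had 192 CPM against 8.93. Ctxn3 had 676 against 17.1 and Synpr, a synaptic vesicle protein, 1066 against 47.9. Their Gfra3, the artemin receptor, was at 16.4 CPM and their Lef1 at 5.00. The Tac1-poor cells were kept in every count, as the gate requires, and values for the Tac1-rich cells stand beside the calls over all genes, beside many of the genes and lists named. Depth moves with these levels, and its part was not tested.

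The Tac1-rich cells carried the markers that go with the name. These markers were chosen with results of these data known, so their levels are a description. Fgg had a mean of 613 ± 51.7 CPM (SD, n = 6 mice) in Tac1-rich cells, Tac1 4081 ± 445 and Calca 6725 ± 1322. Gfra3 was at 300.4, 281 and 372 CPM in mice 654, 657 and 670 and at 173, 229 and 199 in mice 671, 698 and 699. Lef1, a transcription factor of the Wnt pathway, was at 66.2, 56.9, 76.9, 111, 116 and 81.4 CPM in the mice in number order. Calcrl, part of the CGRP receptor, was at 35.6, 74.7, 19.2, 38.1, 34.7 and 45.2 CPM. Lef1 in Tac1-rich cells lay above every mouse's value in each comparison population, where the highest was 14.6 CPM in Sstr2 Adcyap1 cells and 13.7 in Chrna3 cells. Gfra3 overlapped with the Sstr2 Adcyap1 cells, which ranged from 50.7 to 238 CPM, and with the Chrna3 cells, at 51.0 to 185.

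**Figure D2:**
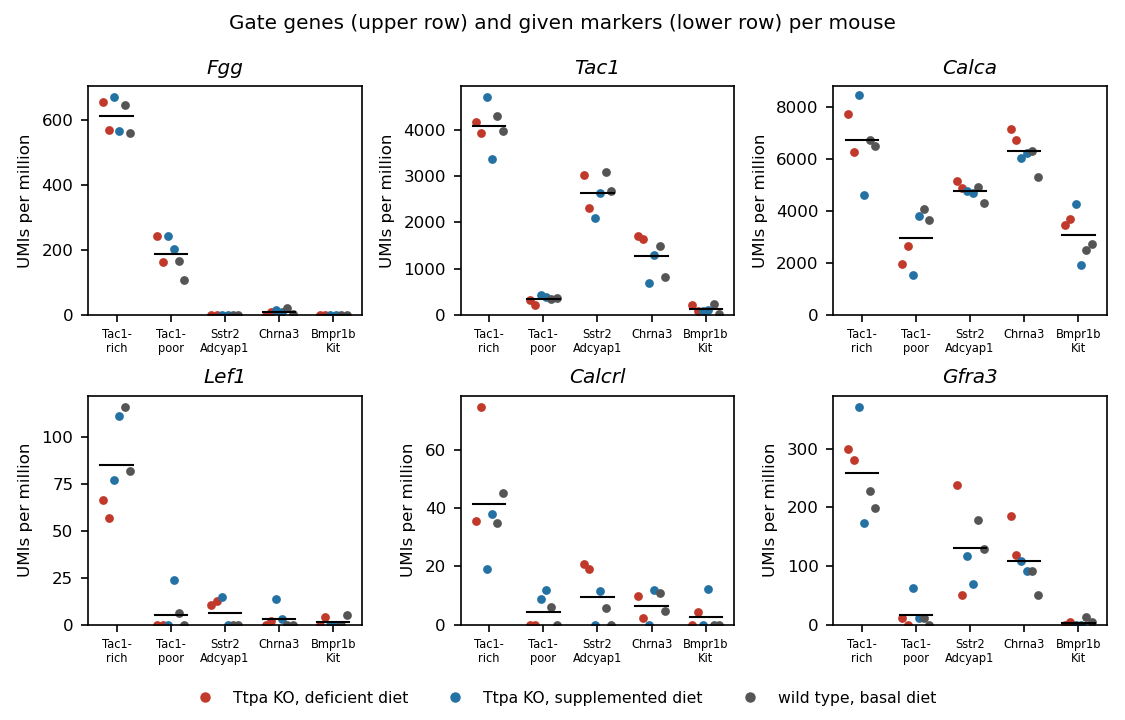
Level in CPM of the 3 gate genes (upper row) and the other 3 given markers (lower row) in Tac1-rich and Tac1-poor gated cells and in the Sstr2 Adcyap1, Chrna3 and Bmpr1b Kit populations. Each point is a mouse, coloured by group, and the horizontal line is the mean. Lef1 in Tac1-rich cells runs from 56.9 to 116 CPM and is under 25 CPM in every other point.

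Several defining markers of other classes were at or near 0 in the Tac1-rich cells, but Adcyap1 was not. Sst and Nppb, of itch neurons, and Chrna3, of silent nociceptors, had 0 UMIs, the last fixed by the gate. Th, of low-threshold C-fibres, had 2 UMIs in all, Trpm8, the cold channel, 3, and Bmpr1b 1. Nefh, the heavy neurofilament chain of myelinated neurons, was at 53.2 ± 15.5 CPM in Tac1-rich cells against 412 ± 93.6 in Chrna3 cells and 1144 in Bmpr1b Kit cells. Transcripts of the other fibrinogen chains, Fga and Fgb, were absent, with 0 UMIs in the gated cells. At this depth Fgg stood without its usual partners.

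Gfra3, Lef1 and Trpv1 were found in a larger share of Tac1-rich cells than of Sstr2 Adcyap1 or Chrna3 cells after every cell was thinned to 2000 UMIs, which left out 61 Tac1-rich cells and 101 Sstr2 Adcyap1 cells as too shallow. Gfra3 had a UMI in 37.2% of thinned Tac1-rich cells (49.7% unthinned, median 3023 UMIs), 19.5% of Sstr2 Adcyap1 cells (22.5%, median 2244) and 15.3% of Chrna3 cells (29.9%, median 5270.5). Lef1 had a UMI in 16.1% of thinned Tac1-rich cells (23.2% unthinned), 0.476% of Sstr2 Adcyap1 cells (1.29%) and 0.697% of Chrna3 cells (1.01%). Trpv1, the heat and capsaicin channel, was found in 35.5% (48.0% unthinned), 25.2% (27.3%) and 26.5% (45.0%) of these populations. These shares pool the cells of all mice. By mouse the thinned Trpv1 shares were 36.2 ± 8.6% (mean ± SD), 25.8 ± 11.8% and 27.3 ± 7.9% in the same order, with overlapping spreads. The Tac1 boundary was drawn on these data, and the comparison populations were not cut on Tac1. Of 87 thinned Tac1-poor cells, 5 had a UMI of Gfra3, 2 of Lef1 and 10 of Trpv1. For Gfra3 and Trpv1 these shares lay below those of both comparison populations. The larger shares are thus given for the Tac1-rich cells and not for all gated cells. As a background, 1172 cells with 3 or more Th UMIs (median 5429 UMIs) had Gfra3 in 0.174% and Trpv1 in 0.174% after thinning. Lef1 was found in 0 of 1149 thinned Th cells, which allows a share of up to 0.261% with a captured UMI at that depth and sets no limit on cells that express the gene.

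Within the Tac1-rich cells, the other markers did not all move one way with the number of Fgg UMIs. Lef1 had a mean of 88.9, 90.6 and 69.7 CPM in cells with 1, 2 and 3 or more Fgg UMIs (229, 126 and 128 cells). Gfra3 had 233, 260 and 312 CPM, and Lpar1 119, 150 and 168. Median depth moved with the Fgg count, from 2778 to 3685.5 UMIs, and its part in these values was not tested.

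The gate's own edges were as follows. The 305 cells with 1 Fgg UMI had Lef1 at 53.8 CPM and Gfra3 at 128, and the 4678 cells that passed all else but held no Fgg had 11.9 and 92.4. The 41 cells with 1 Tac1 UMI had Gfra3 at 36.6 CPM, and the 68 with none had 12.5. Etv1 was at 154 CPM in the cells with 1 Fgg UMI and at 102 in those with none. It was at 147 CPM in the cells with 1 Tac1 UMI and at 265 in those with none, so Etv1 was not particular to the gated cells. At the Calca limit 15 cells stood just inside and 16 just outside, and at the Chrna3 and Slc5a7 limit 42 cells with 1 UMI stood outside, with Lef1 at 91.8 CPM and Gfra3 at 184. At the Mrgprd and Lpar3 limit the 25 cells just inside held 424 CPM of Tmem45b, a gene of non-peptidergic neurons, and no Gfra3. No cell lay at 4 or 5 Sst and Nppb UMIs with all else passed.

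The first comparison asks what sets these neurons apart from the Sstr2 Adcyap1 peptidergic cells (311 cells with Calca of 3 or more, Sstr2 and Adcyap1 of 1 or more and no Fgg). Higher in the Fgg Tac1 cells were Etv1, a transcription factor, Lpar1, a lysophosphatidic acid receptor, Igfbp2, which binds insulin-like growth factors, Tmem233, Plxnc1, a semaphorin receptor, and F2rl2, a protease-activated receptor. Lower were Pcp4, a calmodulin regulator, Zcchc12, the transcription factors Bcl11a and Pou4f3, the neuropeptide Gal and the potassium channels Kcnk2 and Kcnk3. UMI counts were summed per mouse and population and compared with mouse as a block, by edgeR's quasi-likelihood test with Benjamini-Hochberg adjustment over all genes tested. Of 3530 genes, 989 (28.0%) passed an adjusted p of 0.05, 500 higher (14.2%) and 489 lower (13.9%). In the Tac1-rich cells alone 607 of 2877 passed (21.1%), 525 of them among the 989. Without the low-count filter the same genes shifted by a median of 0.21 (log2) towards the Fgg Tac1 cells, and 1050 genes were called higher and 409 lower, so calls on small differences moved with that filter.

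Etv1 was at 183, 128, 103, 177, 234.5 and 151 CPM in Tac1-rich cells of the mice in number order and at 0 to 29.2 CPM in Sstr2 Adcyap1 cells. Over all gated cells it was 3.79 ± 0.35 (log2 difference ± SE) higher with an adjusted p of 3.57e-15, and 3.85 in Tac1-rich cells. Lpar1 was at 109 to 175 CPM in Tac1-rich cells (median 147) and at 0 to 29.2 in Sstr2 Adcyap1 cells. The populations did not overlap for either gene. Lpar1 differed by 3.90 ± 0.42 (adjusted p 1.98e-12) and by 4.30 in Tac1-rich cells. Igfbp2, at 69.4 to 148 CPM against 0 to 12.7, differed by 4.16 ± 0.49 (adjusted p 4.95e-11), and by 4.56 in Tac1-rich cells. Dpp10, a partner of Kv4 potassium channels, differed by 4.23 ± 0.49 and Tmem233 by 5.08 ± 0.27, with the latter at 194 CPM in Tac1-rich and 851 in Tac1-poor cells.

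Some of the largest differences came from the Tac1-poor cells. Tmem45b, Ppp1r1a, Ctxn3, Synpr, Acpp, Aprt and Tspan8 were 3.93 to 6.15 higher over all gated cells, and all 7 had too few UMIs to be tested when only Tac1-rich cells were used. Tmem45b was at 10.9 CPM in Tac1-rich and 373 in Tac1-poor cells, and Acpp, the prostatic acid phosphatase of non-peptidergic neurons, at 46.8 and 360.

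Among the lower genes, Pcp4 was at 6.41 to 107 CPM in Tac1-rich cells and at 662.5 to 1808 in Sstr2 Adcyap1 cells, with no overlap. It was lower by 4.27 ± 0.15 (log2 ± SE) with an adjusted p of 8.48e-39, and the Tac1-rich difference was -4.11. Zcchc12 was at 6.03 to 13.9 CPM against 104 to 197, and its log2 difference was -4.33 ± 0.30. Bcl11a was at 0 to 24.9 CPM against 120 to 161, a difference of -3.64 ± 0.30. Pou4f3, a POU factor of sensory neurons, was at 14.5 to 35.6 CPM against 104 to 228, a difference of -3.19 ± 0.26. Kcnk3, a background potassium channel, was at 7.12 to 31.2 CPM against 69.0 to 219, a difference of -3.41 ± 0.31. Also lower were Litaf (-3.53), Cyp1b1 (-3.32), Fxyd6 (-3.13), Sulf1 (-3.12), Osbpl6 (-3.11) and Ifitm2 (-3.00).

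**Figure D3:**
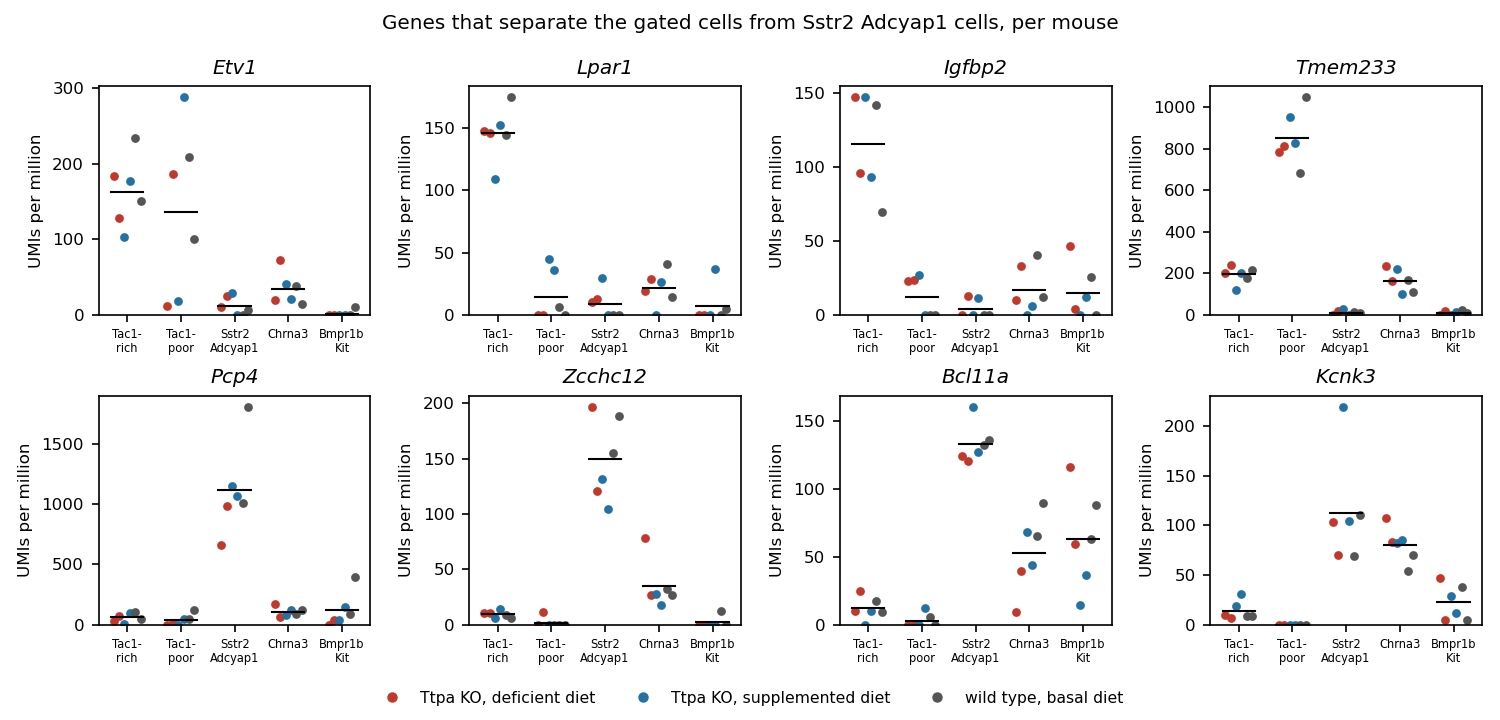
Level in CPM of 4 genes that were higher (Etv1, Lpar1, Igfbp2, Tmem233) and 4 that were lower (Pcp4, Zcchc12, Bcl11a, Kcnk3) in Fgg Tac1 cells than in Sstr2 Adcyap1 cells, in 5 populations. Each point is a mouse, coloured by group. Tmem233 is highest in the Tac1-poor cells and Pcp4 in the Sstr2 Adcyap1 cells.

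Of the given markers only Gfra3 had enough UMIs for this comparison. It was 0.46 ± 0.19 (log2 ± SE) higher with an adjusted p of 0.0553, and 0.91 higher in Tac1-rich cells. Without the low-count filter Gfra3 was 0.67 ± 0.18 higher (adjusted p 0.00251), Lef1 3.56 ± 0.48 (8.72e-12) and Calcrl 1.95 ± 0.48 (0.000829). The Gfra3 call depends on the filter, and it was also gained with doublets kept, with a stricter gate and without mouse 654, 698 or 699.

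Neuropeptide genes went both ways, where 28.0% of all genes tested passed, and 21.1% in Tac1-rich cells. Of 24 precursors on the list, 7 were tested beyond the gate genes, 3 were higher and 4 lower, and the median difference was -0.62 (log2) beside -0.02 for all genes tested. Calcb, which encodes the second CGRP, was 1.15 ± 0.12 higher (adjusted p 1.81e-12) and Nmb, the itch peptide neuromedin B, 0.90 ± 0.13. Scg2, secretogranin, was 0.32 ± 0.11 higher with an adjusted p of 0.0165. This call was lost by DESeq2, without the mouse block and without mouse 654 or 699. Gal was at 52.0 to 92.6 CPM in Tac1-rich cells of 5 mice, at 580.4 in mouse 654 and at 621 to 1037 in Sstr2 Adcyap1 cells. It was lower by 3.16 ± 0.18 (adjusted p 3.21e-26). Bdnf (-1.28), Cartpt (-0.97) and Vgf (-0.62) were the other lower peptide genes. Of 10 tested genes for peptide processing and granules, 5 were higher and 2 lower, with a median of 0.56, but in Tac1-rich cells 2 of 9 were higher and 2 lower, with a median of 0.16. Cpe, which trims propeptides, was 0.86 ± 0.13 higher, and Pam, which amidates them, had a difference of -0.74 ± 0.12.

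Of 5 tested channels that detect heat, irritants or touch, of a list of 21, 2 were higher and 1 lower, with a median of 0.26, where 28.0% of all genes tested passed. Only 2 of them could be tested in Tac1-rich cells, and 1 was higher. Trpa1, the irritant channel, was 1.13 ± 0.34 higher (adjusted p 0.00701), at 62.1 CPM in Tac1-rich and 59.1 in Tac1-poor cells. Piezo2, the touch channel, was 1.42 ± 0.33 higher, but stood at 41.6 CPM in Tac1-rich and 216 in Tac1-poor cells beside 31.7 in Sstr2 Adcyap1 cells. Trpv1 differed by 0.26 ± 0.17 with an adjusted p of 0.271. Of 6 tested sodium channel genes none was higher, and Fgf13, a channel partner, was lower by 0.59 ± 0.08. Of 8 tested potassium and HCN channels 4 were lower and 1 higher, with a median of -0.82, and in Tac1-rich cells 4 of 6 were lower and none higher. Kcnk2 was lower by 2.81 ± 0.24 and Kcnc4 by 1.36 ± 0.16. Kcnip4, the higher one, stood at 20.5 CPM in Tac1-rich cells against 17.8 in Sstr2 Adcyap1 cells and so came from the Tac1-poor cells. Of 6 tested calcium channel genes 2 were lower, among them Cacna2d1, the gabapentin target, by 1.26 ± 0.10.

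Receptors for growth factors and mediators differed gene by gene. Over all genes tested 28.0% passed, and 21.1% in Tac1-rich cells. Of 10 tested growth factor receptors 4 were higher and 3 lower, with a median of 0.29, and in Tac1-rich cells 6 of 9 were higher and 2 lower. Plxnc1 was at 137 CPM in Tac1-rich and 22.5 in Sstr2 Adcyap1 cells and differed by 2.60 ± 0.27. Il6st, the shared chain of interleukin 6 receptors, was at 336 to 575 CPM in Tac1-rich cells and 104 to 307 in Sstr2 Adcyap1 cells, and differed by 1.33 ± 0.16 (adjusted p 3.99e-11). Ret, the glial-derived growth factor receptor, was 0.45 ± 0.13 higher and Lifr 0.28 ± 0.11. Of 5 tested receptors for inflammatory mediators, Lpar1 was higher and Htr1b (-1.43 ± 0.26) and S1pr3 (-0.69 ± 0.16) lower. Of 4 tested inhibitory receptors, Gabbr2 was 0.82 ± 0.22 higher and Npy1r had a difference of -1.66 ± 0.19. F2rl2 was at 159 to 235 CPM in Tac1-rich cells and 34.5 to 82.8 in Sstr2 Adcyap1 cells, without overlap, and differed by 1.38 ± 0.21 (adjusted p 1.53e-07).

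Of 16 tested sensory lineage transcription factors 4 were higher and 6 lower, and 5 and 5 in Tac1-rich cells. Of all genes tested, 14.2% were higher and 13.9% lower, and 21.1% passed in Tac1-rich cells. Beside Etv1, Isl2 was 1.45 ± 0.21 higher and Pou4f1 0.55 ± 0.13 higher, while Zfhx3 was 0.79 higher over all gated cells but -0.05 in Tac1-rich cells. Beside Bcl11a and Pou4f3, Bcl11b was lower by 1.5 ± 0.22 and Runx1, which sets the non-peptidergic fate in development, by 0.89 ± 0.12. Without the low-count filter 6 of the 16 were higher and 5 lower. Of 5 tested genes of the Wnt pathway Tle1 and Tle4 were higher and Apc lower, and in Tac1-rich cells 1 of 4 was higher and 1 lower. Of 13 tested genes of vesicle release 3 were higher and 2 lower, and 1 and 2 in Tac1-rich cells. Syt1, the calcium sensor of release, was 1.13 ± 0.14 higher.

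Genes tied to cell handling and content also differed. The share of all genes tested that passed was 28.0%, and 21.1% in Tac1-rich cells. Of 11 tested immediate early genes 9 were lower and none higher, with a median of -0.71, and 5 were lower in Tac1-rich cells. Jun was lower by 1.24 ± 0.11 and Klf6 by 1.11 ± 0.15. All 12 tested mitochondrially encoded genes were lower, with a median of -0.77, and all 11 tested in Tac1-rich cells, with a median of -0.60. Median mitochondrial content was 3.75% of UMIs in gated cells and 5.59% in Sstr2 Adcyap1 cells, and median depth was 3221 against 2244 UMIs. The part of depth and of RNA quality in these lists was not tested. Of 22 tested antioxidant genes 6 were higher and 2 lower, and of 21 in Tac1-rich cells 3 were higher and 1 lower. Ftl1, the ferritin light chain, was 0.80 ± 0.08 higher. Txn1, thioredoxin, was 1.45 higher over all gated cells and -0.41 in Tac1-rich cells. Glial markers were mixed, with 2 of 7 tested higher and 2 lower, and 4 higher and 2 lower in Tac1-rich cells.

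Against the Chrna3 cells (298 cells with Calca of 3 or more and at least 2 UMIs of Chrna3 and Slc5a7) the differences were larger in number. Of 4892 genes 1644 (33.6%) passed, 812 higher (16.6%) and 832 lower (17.0%), and 1489 of 4422 (33.7%) in Tac1-rich cells. Chrna3 cells were deeper, with a median of 5270.5 UMIs. Lef1 was 4.98 ± 0.45 higher in Fgg Tac1 cells (log2 ± SE, adjusted p 1.93e-10) and 5.37 in Tac1-rich cells, with 3 Lef1 UMIs in all the Chrna3 cells. Zfhx4, a zinc finger factor, was 3.96 ± 0.44 higher, Crip1 3.64 ± 0.16 and Pdlim2 3.62 ± 0.24. Ptprt, a receptor phosphatase, was 5.04 ± 0.38 higher, and 4.93 in Tac1-rich cells. Tmem45b, listed at 0 in Chrna3 cells, was at least 68.3-fold higher against a floor of 3 UMIs over the group, and belongs to the Tac1-poor cells. Gfra3 was 0.88 ± 0.15 higher (adjusted p 2.94e-05), Etv1 2.23 and Lpar1 2.18.

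The genes lower than in Chrna3 cells included genes of myelinated neurons. Thy1, a surface glycoprotein, had 13 UMIs in all Tac1-rich cells and was at 351 to 797 CPM in Chrna3 cells, and it was lower by 5.27 ± 0.25. S100b, a calcium-binding protein, was lower by 3.97 ± 0.17, Htr3a, a serotonin-gated channel, by 4.96 ± 0.26 and Nefh by 2.52. Chrnb4, the nicotinic receptor subunit that pairs with Chrna3, was lower by 3.97 ± 0.48. S100a16 (-5.67), Fam19a1 (-6.35), Trappc3l (-5.55), Ly6h (-4.86), Sv2b (-4.01) and Cntn1 (-3.68) were among the largest. Sema5a, with no UMI in the gated cells, was at least 43.4-fold lower than in Chrna3 cells. Gal was lower by 3.27 against this population too. Trpv1 differed by 0.16 over all gated cells with an adjusted p of 0.49. In Tac1-rich cells alone it was 0.55 higher (adjusted p 0.00386), so this call depends on the Tac1-poor cells.

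Against the 101 Bmpr1b Kit cells (Calca of 3 or more, Bmpr1b and Kit of 1 or more and no Fgg), 1503 of 3918 genes (38.4%) passed, 745 higher (19.0%) and 758 lower (19.3%), and 1400 of 3384 (41.4%) in Tac1-rich cells. Without the low-count filter the same genes shifted by a median of 0.13 (log2), and 1260 were called higher and 819 lower. Gfra3 was 5.32 higher (adjusted p 4.94e-14) and Trpv1 5.12 higher (5.01e-12). Gpx3, an extracellular glutathione peroxidase, was 4.91 higher (2.76e-17), Etv1 5.55 ± 0.46 and Celf6, an RNA-binding protein, 5.95 ± 0.55. Mal2 (5.53), Pdlim2 (5.48), Crip1 (5.47), Rasgrp1 (5.41) and Bex1 (5.40) followed. Lower were Nefh (-3.95), Thy1 (-6.03), Fam19a1 (-7.04), Trappc3l (-7.22), Prokr2 (-5.87), Cpne6 (-5.65) and Htr3a (-5.57). Sema5a was at least 136-fold lower. The Bmpr1b Kit cells were the deepest, with a median of 6467 UMIs.

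Across the 30 sums of 5 populations and 6 mice, the gene whose level lay closest to that of Fgg was F2rl2, with a Pearson correlation of 0.875. The gate fixed much of the Fgg pattern itself, since gated cells needed an Fgg UMI and Sstr2 Adcyap1 and Bmpr1b Kit cells could hold none, so the ranking largely restates which genes are high in gated cells. Psmb10 and Nbl1 followed at 0.81, Il6st at 0.8, 1810037I17Rik at 0.784, Crip2 at 0.782, Camk2a at 0.777, Gna14 at 0.772, Cd9 at 0.771 and Plcb3 at 0.77. Sums of the same mouse share a library, and the means of the 5 populations set most of these values, so they describe a pattern and carry no p.

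The next comparisons ask whether vitamin E status and loss of Ttpa changed these neurons. In all 3 contrasts few genes passed, and mice of a group often differed. Of 5373 genes, 4 (0.0744%) passed between the deficient and the wild-type mice by edgeR's quasi-likelihood test, while 129 had an unadjusted p under 0.05. In Tac1-rich cells 3 of 4756 passed (0.0631%). DESeq2 called 0 genes in each of the 3 contrasts, with 16, 27 and 23 genes at an unadjusted p under 0.05 in the order in which they are described here.

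Car8, an inositol trisphosphate receptor partner related to the carbonic anhydrases, had no UMI in the gated cells of the deficient mice. Its UMIs in the gated cells numbered 0 and 0 in the deficient mice 654 and 657, 14 and 0 in the supplemented mice 670 and 671, and 64 and 42 in the wild-type mice 698 and 699. The wild-type mice were the highest and 3 of the 4 Ttpa-/- mice had none. In mouse 698 these UMIs lay in 41 cells and in mouse 699 in 34, so no single cell carried them. Car8 was at least 23.8-fold lower in deficient than in wild-type mice, against a floor of 3 UMIs over the group (adjusted p 1.83e-07, and not called by DESeq2). Against wild type the supplemented mice differed by -2.29 ± 0.46 (log2 ± SE, adjusted p 0.00566), and by -1.11 without mouse 671, where the call was lost. It was also lost without mouse 698 (-2.07) and by limma-voom (-3.83). In all other Calca cells Car8 stood at 3.06, 2.87, 28.3, 3.00, 55.2 and 30.8 CPM in the mice in number order, with mouse 670 again high among the Ttpa-/- mice. Car8 lies at chr4:8143362-8239041 (GRCm38), 11.8 Mb from Ttpa at chr4:20007938-20030785. Necab1, a calcium-binding protein gene 4.86 Mb from Ttpa, was at 201, 232, 187 and 212 CPM in the Ttpa-/- mice and at 154 and 79.7 in the wild-type mice, a difference of 0.86 ± 0.27 between deficient and wild type that did not pass. The part of chromosomal position was not tested.

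Wdfy1, an endosomal adaptor protein on chr1:79702262-79776143, was higher in both Ttpa-/- groups. It was at 70.6 and 98.1 CPM in the deficient mice, 89.7 and 83.4 in the supplemented mice and 13.6 and 15.5 in the wild-type mice, with no overlap. It was 2.51 ± 0.41 higher in deficient mice (adjusted p 0.00023) and 2.52 ± 0.41 higher in supplemented mice (adjusted p 0.000146), and both contrasts share the wild-type mice. Its UMIs lay in 20 to 29 cells of each Ttpa-/- mouse and 7 of each wild-type mouse. Under the alternatives the adjusted p for the deficient mice lay between 1.3e-06 and 0.169, the latter by DESeq2. In all other Calca cells Wdfy1 was at 39.4 to 69.6 CPM in the Ttpa-/- mice and 14.8 to 18.7 in the wild-type mice.

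The other calls between deficient and wild-type mice rested on few cells. Gal was 1.80 ± 0.37 higher in deficient mice (adjusted p 0.0116), but 100 of the 115 Gal UMIs of mouse 654 lay in 1 cell, and without that mouse the difference was 0.02. Fxyd7, a regulator of the sodium pump, was lower by 2.13 ± 0.38 (adjusted p 0.000897). Of its 197 UMIs in mouse 699, 105 and 38 lay in a pair of cells, and without that mouse the difference was -0.61. In Tac1-rich cells it was -1.05. Cartpt (1.11), Ly86 (-1.25), Ifi27l2a (-1.21) and Spock3 (-1.18) did not pass. Of the given markers, Lef1 was at 45.9 and 43.6 CPM in the deficient, 44.9 and 91.4 in the supplemented and 79.9 and 59.8 in the wild-type mice. The deficient mice were both below the wild-type mice, and the difference was -0.67 ± 0.37 with an adjusted p of 1.0. Gfra3 (0.47) and Calcrl (0.53) did not pass either.

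Between supplemented and wild-type mice 9 of 5373 genes (0.168%) passed, 6 higher (0.112%) and 3 lower (0.0558%), with 182 at an unadjusted p under 0.05, and 9 of 4756 (0.189%) in Tac1-rich cells. The higher genes included several known from satellite glia and Schwann cells. Apoe, a lipid carrier, was at 411 and 1197 CPM in the supplemented, 281 and 117 in the wild-type and 434 and 335 in the deficient mice, so that mouse 671 stood far above the rest. It was 2.01 ± 0.30 higher (adjusted p 4.04e-05), and 0.98 without mouse 671, where the call was lost. Gpm6b, a membrane glycoprotein, was at 78.5 and 99.5 CPM in the supplemented, 17.5 and 4.43 in the wild-type and 28.2 and 24.5 in the deficient mice. The supplemented mice lay above all others, and the difference from wild type was 2.93 ± 0.45 (adjusted p 4.04e-05, under the alternatives at most 0.0507, by DESeq2). Sparc was 2.62 ± 0.57 higher, Fabp7, a fatty acid binding protein of satellite glia, 1.53 ± 0.31 and Dbi 1.16 ± 0.24. Without mouse 671 the differences of Fabp7 and Dbi were 0.67 and 0.90, and both calls were lost (adjusted p 0.741 and 0.186). Fabp7 also lost its call without mouse 699 (0.93), Dbi without mouse 698 (1.10) or 699 (1.19), and both by DESeq2. Sparc lost its call without any 1 of mice 670, 671, 698 and 699. It also lost it by DESeq2, by limma-voom, with a stricter gate and with thinned sums.

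Of the glial list 10 of 20 genes were tested in this contrast. Among them 4 were higher and none lower, where 0.112% of all genes tested were higher. Their median was 0.97 beside 0.00 for all genes. The summed level of the 20 glial genes in the gated cells was 2249 and 1861 CPM in the deficient, 2588 and 3803 in the supplemented and 1995 and 1638 in the wild-type mice. In all other Calca cells it was 2566 and 2375, 2907 and 3028, and 2576 and 2395 CPM in the same order. Genes of the glial list differed widely in level. Sox10, a defining glial factor, had 4 UMIs in the Tac1-rich cells of all mice, while Apoe had 423 and Fabp7 145 in those of mouse 671. The part of glial RNA in these calls was not tested. The lower genes were Car8, Fxyd7 (-2.02 ± 0.38, and -0.50 without mouse 699) and Gm7271, which was at 0 UMIs in the supplemented mice and at least 7.29-fold lower than in wild type, where 31 of its 33 UMIs lay in Tac1-poor cells. Its call was lost without mouse 671, 698 or 699.

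**Figure D4:**
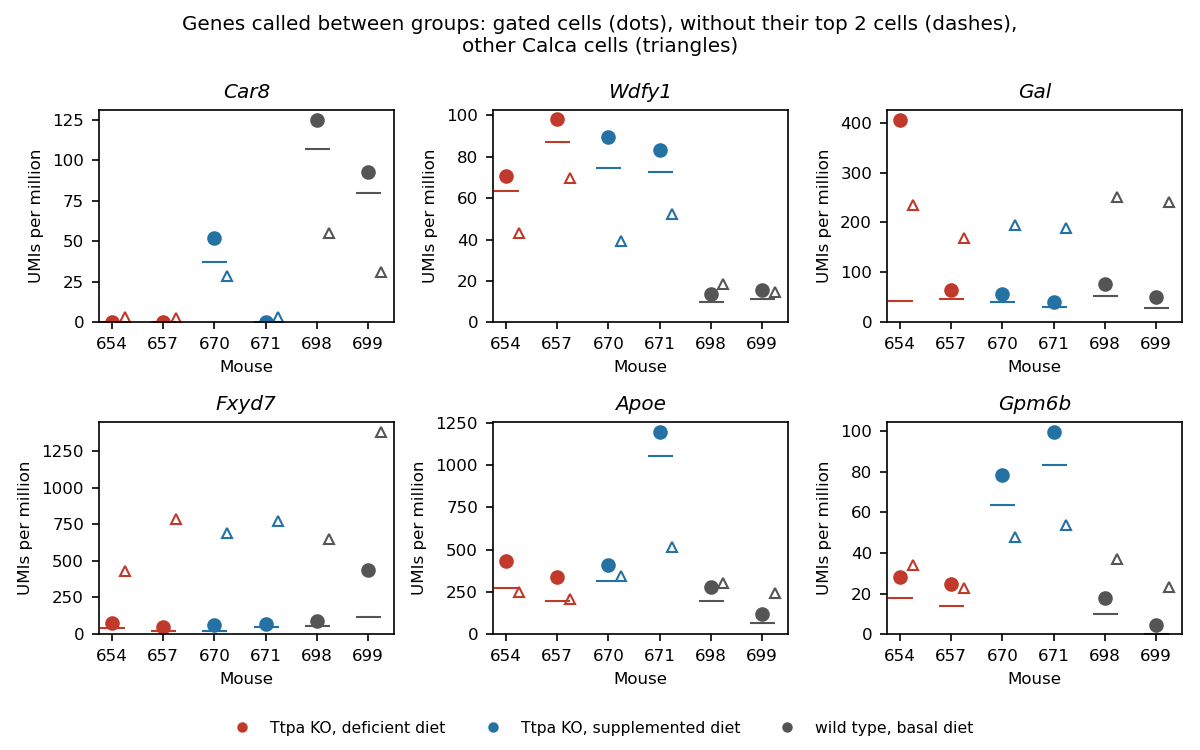
Level in CPM by mouse of Car8, Wdfy1, Gal, Fxyd7, Apoe and Gpm6b. Dots are the gated cells coloured by group, dashes the same without the 2 cells richest in that gene, and triangles all other Calca cells. Car8 is at 0 in mice 654, 657 and 671, and the Gal level of mouse 654 drops when the 2 richest cells are left out.

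Between deficient and supplemented mice, which share genotype and age, 2 of 5373 genes (0.0372%) passed, with 162 at an unadjusted p under 0.05. Gal was 2.25 ± 0.42 higher in deficient mice, and 0.48 without mouse 654. Ifit1, an interferon-induced gene, was at 215 and 218 CPM in the deficient, 89.7 and 72.6 in the supplemented and 193 and 115 in the wild-type mice. Both deficient mice lay above both supplemented mice, and the difference was 1.43 ± 0.30 (adjusted p 0.0274). The call was lost without mouse 654, 657 or 671, with sex as a term (adjusted p 0.0741), with doublets kept (0.111), with thinned sums (0.117) and by DESeq2, and the adjusted p ran from 0.00235 to 1.0 over the 15 alternatives. Id3, an inhibitor of helix-loop-helix factors, differed by -1.63 with an adjusted p of 0.11 and Gpm6b by -1.77 with the same adjusted p.

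The lists that bear on vitamin E showed no calls between deficient and wild-type mice, where 4 of all 5373 genes (0.0744%) passed. At so low a share, no call in lists this short is nothing particular to them. All 28 tested antioxidant and ferroptosis genes, 21 of cholesterol synthesis and 12 mitochondrially encoded genes failed to pass, with medians of 0.02, 0.11 and -0.24 beside 0.01 for all genes. Of the 5 tested vitamin E and lipid transport genes, none passed between these groups, and Apoe passed between supplemented and wild-type mice. None of 8 tested transduction channels, 6 sodium channels, 13 growth factor receptors or 16 transcription factors passed in this contrast. At 2 mice a group these counts do not show that the levels were alike. Globin transcripts were nearly absent, with no Hbb-bt UMI in the gated cells.

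Whether the change from wild type to deficient differed between the gated cells and all other Calca cells was tested as an interaction. Of 11128 genes 5 (0.0449%) passed, with 419 at an unadjusted p under 0.05, and 3 (0.0271%) in Tac1-rich cells. They were Gal, Apoe, Cartpt, Ly86 and Fxyd7. Wdfy1 (0.75, adjusted p 1.0) and Car8 (adjusted p 0.994) did not pass, so their differences are not shown to be particular to these cells.

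The gated cells made up 2.08% to 3.54% of the kept cells of a mouse. They were 2.15% (exact 95% binomial interval 1.72 to 2.65) and 2.87% (2.28 to 3.55) in the deficient mice. The supplemented mice had 2.08% (1.66 to 2.58) and 3.11% (2.57 to 3.72), and the wild-type mice 3.54% (2.94 to 4.23) and 2.96% (2.42 to 3.60). Both deficient mice lay below both wild-type mice, while the supplemented mice overlapped with them. The difference between deficient and wild-type means was -0.747 percentage points (two-sided exact permutation p of 0.333, the smallest that 2 against 2 mice allow, adjusted 1.0). Supplemented minus wild type was -0.659 (exact p 0.667) and deficient minus supplemented -0.088 (exact p 1.0). Mice 654 and 670 had the shallowest cells and the smallest shares. With cells thinned to 2000 UMIs the shares were 1.58%, 2.27%, 1.12%, 2.41%, 2.53% and 2.20% in the mice in number order, and those of mice 654 and 670 were still the smallest. Intervals cover counting error only. As a share of cells with 3 or more Calca UMIs, the gated cells made up 5.22% to 6.96%.

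**Figure D5:**
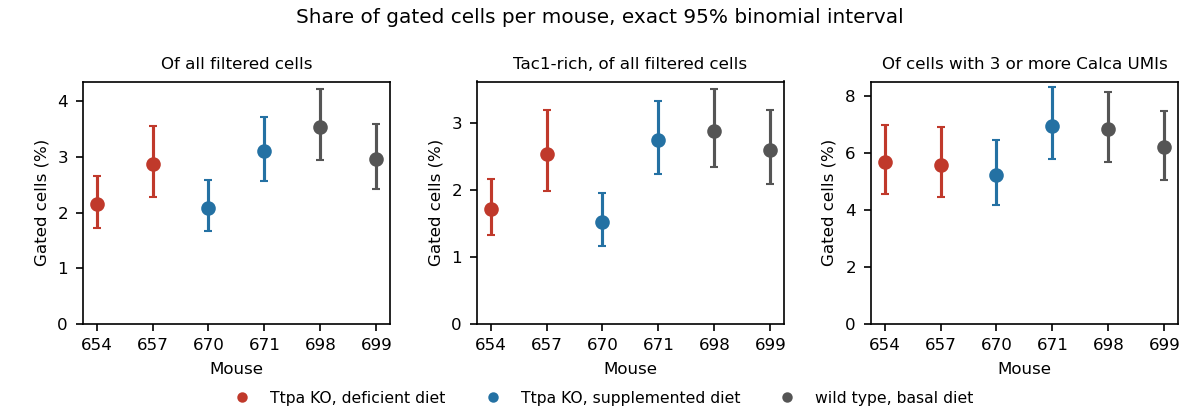
Gated cells as a percentage of all kept cells (left) and of cells with 3 or more Calca UMIs (right). The middle panel shows Tac1-rich gated cells as a percentage of all kept cells. Points are mice, coloured by group, with exact 95% binomial intervals. The wild-type mice, at 3.54% and 2.96% of kept cells, overlap with supplemented mouse 671 at 3.11%.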

How the data were processed

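UMI counts per gene and cell were deposited by the authors as 1 table of raw counts. Per the submitters' processing notes, Cell Ranger 2.0.1, bcl2fastq 2.17.1.14, Seurat 2.3.0 and limma 3.32.10 and the build mm10 were named, and libraries were 3' droplet libraries per the labels' protocols. A minimum of 500 genes and a maximum of 20% mitochondrial UMIs per cell removed 27 cells, and scrublet (scanpy 1.11.5) called 634 doublets at 0.8% per 1000 cells (45 at its automatic threshold), 24 of them gated. Raw counts were summed per mouse and population and tested with edgeR 4.0.16 (quasi-likelihood, TMM, filterByExpr, R 4.3.3). All 3 groups shared 1 estimate of spread, and population comparisons had mouse as a block. The edgeR fits of deficient against wild type, of the population comparisons and of the interaction were also run on simulated counts. Their outcome is not given here, and the other tests were not simulated. Gate genes were left out of tests and counts, and some named genes are not reported here. Levels are CPM of summed UMIs. The gate and the gene lists were chosen with earlier results of these data known. Named genes were, per group contrast, up to 10 per direction (average log2 CPM of 4 or more and no overlap between mice) and, if under 5 passed, the 5 of lowest p. Per population comparison they were up to 12 per direction (average log2 CPM of 5 or more, all 6 mice in 1 direction), with the given markers, up to 4 per list and direction and genes named in earlier work. Alternatives were other size factors, no filter, DESeq2 1.42.0, limma-voom 3.58.1, a sex term, no block, doublets kept, a stricter gate (Calca of 5, Fgg of 2 and Tac1 of 2 or more), thinning and leaving out each mouse, and, added after seeing the data, Tac1-rich cells alone.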

Additional observations from a re-analysis of the deposited data

Results flagged for a closer look

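A total of 5 genes changed differently from wild type to deficient in the gated cells than in all other Calca cells, by edgeR's quasi-likelihood test of the interaction. Gal had a log2 interaction of 1.94 (adjusted p 5.46e-10), with 100 of the 115 Gal UMIs of mouse 654 in 1 cell, and 0.51 without that mouse. Apoe had 1.21 (adjusted p 9.71e-06), with deficient mice at 434 and 335 CPM and wild-type mice at 281 and 117 in the gated cells, against 247 and 205 and 305 and 244 CPM in the other Calca cells. Without mouse 699 it was 0.85 and the call was lost. Cartpt, a peptide precursor, had 1.44 (adjusted p 1.25e-05), with 58 of the 87 UMIs of mouse 654 in 1 cell. Its call was lost without mouse 654 (0.64) and without mouse 699 (1.29). Ly86 had -1.44 (adjusted p 3.70e-05), with 40 and 15 UMIs in deficient and 113 and 84 in wild-type mice, few of them in Tac1-rich cells (2 and 4 against 12 and 16). The Ly86 call was lost without mouse 657 (-0.83), without mouse 699 (-1.27) and in Tac1-rich cells (-1.89). Fxyd7 had -1.32 (adjusted p 0.00266), and -0.54 without mouse 699, -0.48 without mouse 657, -0.63 with doublets kept and -0.42 in Tac1-rich cells.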

How the results depend on the processing

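No paired analysis was possible because mouse numbers are not shared between groups, and no label pairs mice of different groups. Comparisons of populations had mouse as a block, and sex was a term in an alternative for the groups. With 2 mice a group the counts of calls moved with the method. Between deficient and wild-type mice 4 genes passed, 0 by DESeq2, 2 with doublets kept and 4 to 9 with a mouse left out. Between supplemented and wild-type mice 9 passed, 14 without the low-count filter, 0 by DESeq2 and 5 to 18 with a mouse left out (5 without mouse 699, 18 without mouse 670). Between deficient and supplemented mice 2 passed, 6 without the filter, 0 by DESeq2, 1 by limma-voom, with a sex term, with doublets kept or with thinned sums, 4 with the stricter gate and 1 to 16 with a mouse left out (16 without mouse 670). Against Sstr2 Adcyap1 cells 989 passed, 575 by DESeq2, 579 with the stricter gate, 383 with cells thinned, 607 in Tac1-rich cells, 1459 without the filter and 818 to 999 with a mouse left out. Against Chrna3 cells 1644 passed, 969 by DESeq2, 1054 with the stricter gate, 658 thinned and 1300 to 1579 with a mouse left out, and against Bmpr1b Kit cells 1503, 557 thinned and 1238 to 1531. Thinning left fewer genes to test, and the cause of the other moves was not tested. The interaction gave 5 calls, 3 in Tac1-rich cells and 2 to 7 with a mouse left out. Deficient minus supplemented shares turned from -0.088 to 0.155 percentage points when thinned and to 0.340 with the stricter gate. Ifi27l2a turned from -1.21 to 0.40 (log2) with the stricter gate, and Trpv1 against Chrna3 cells from 0.16 to -0.057 without mouse 699 (up to 0.28 without mouse 654). Of 713 gene values under the planned settings other than leaving out a mouse, 670 kept direction and call, 31 lost and 11 gained a call and 1 reversed. Of 599 with 1 mouse left out, 543 kept both, 33 lost and 22 gained a call and 1 reversed. Depth limits genes with few UMIs: Lef1 and Calcrl had too few for the filtered comparison with Sstr2 Adcyap1 cells.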
